A study of Drosophila melanogaster with 2 samples.

Results

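A set of 490 ChIP-seq peaks of the CG12769-GFP fusion protein lay at promoters shared by protein-coding genes of opposite strands. They were taken from the list of 8574 peaks that the authors kept after an IDR step (irreproducible discovery rate), which asks whether peaks rank alike in the replicates. A peak belonged to the set when its summit lay within 500 bp of transcription start sites (TSSs) of at least 2 protein-coding genes and both strands were represented among them. The set made up 5.71% of the IDR peaks (exact 95% interval 5.23 to 6.23). Of the other IDR peaks, 2592 had a single coding gene within 500 bp, 61 had several coding genes of the same strand, and 5431 had no coding TSS within that distance. Divergent-promoter peaks were thus 15.6% of the 3143 IDR peaks at coding promoters (14.3 to 16.9).

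The embryos came from a transgenic line in which green fluorescent protein (GFP) is fused to the C-terminal end of CG12769, and DNA bound by the fusion was recovered with anti-GFP and sequenced. There was 1 group, whole embryos of both sexes aged 10 to 24 h, with 2 biological replicates that the labels number 5 and 7. No function of CG12769 is given in the labels, nor which promoter drives the fusion gene, nor whether the untagged gene was still present, and a whole embryo mixes all its tissues. No control library was analysed here. Peak strength is given as the signal value that the authors' peak caller wrote, whose scale no source used here states, and it was compared within a list only. The lists hold no read counts and the depth is unknown. Peaks, genes and windows drawn from 1 pair of libraries are not replicates of a condition. Intervals on the shares below are therefore exact 95% intervals for counting error, and no p-value is given. Some values were also measured in each replicate's own list. No replicate value is given for gene lists, spacing classes, chromosome arms or the annotation at the summit.

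In a divergent promoter the start sites of neighbouring genes face away from each other and share the stretch of DNA between them. Such pairs are frequent in the compact genome of Drosophila, often with housekeeping genes on one or both sides. Promoters of that kind carry short words read by known factors, among them the DNA replication-related element (DRE), bound by Dref, and Motif 1, bound by M1BP, while promoters of developmental genes more often hold GAGA repeats or an initiator word.

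Sequences of 6 divergent promoters show what lay under these summits. Fragments come from the RefSeq copy of the dm6 assembly and are cut to the bases within 100 bp of the summit that fall in no annotated exon. Each is printed on the plus strand, 5′ to 3′, so that it reads from the side of the minus-strand gene, named first, towards the plus-strand gene. The first 3 belong to some of the strongest members, at 2L:13835363-13835563 (mRpS23/CenG1A), 3R:15229430-15229630 (Art3/mRpS10) and 3L:9426796-9426996 (Atat/Shc), and the middle base of each is the summit. The fourth, 3L:9457703-9457903 (CG3437/CG3552), is the strongest shown holder of the core promoter E-box. The last pair, 3L:9134461-9134559 (bol/Dhpr) and 3L:6488494-6488680 (CG10147/Bulli), hold Motif 1 and Motif 7 and were added after the values were seen, as was the marking of the full DRE. Capitals mark 1 chosen word in a sequence, and other matches are left in lower case, such as the E-box and Motif 6 in bol/Dhpr. The marked words are the full DRE at base 165 of Atat/Shc, the E-box CAGCTG at base 194 of CG3437/CG3552, Motif 1 on its reverse strand at base 68 of bol/Dhpr, and Motif 7 at base 171 of CG10147/Bulli.
mRpS23/CenG1A: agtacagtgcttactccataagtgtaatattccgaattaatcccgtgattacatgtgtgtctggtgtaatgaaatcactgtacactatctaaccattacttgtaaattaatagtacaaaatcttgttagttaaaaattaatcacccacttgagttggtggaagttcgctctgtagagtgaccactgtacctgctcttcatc
Art3/mRpS10: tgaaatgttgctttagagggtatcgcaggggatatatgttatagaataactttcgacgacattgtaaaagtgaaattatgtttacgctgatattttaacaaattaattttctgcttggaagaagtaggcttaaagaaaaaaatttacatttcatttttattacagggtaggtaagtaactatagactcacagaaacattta
Atat/Shc: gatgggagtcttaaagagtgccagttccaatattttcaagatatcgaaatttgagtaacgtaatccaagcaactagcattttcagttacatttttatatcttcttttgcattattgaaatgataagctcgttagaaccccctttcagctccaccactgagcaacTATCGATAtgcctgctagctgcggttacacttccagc
CG3437/CG3552: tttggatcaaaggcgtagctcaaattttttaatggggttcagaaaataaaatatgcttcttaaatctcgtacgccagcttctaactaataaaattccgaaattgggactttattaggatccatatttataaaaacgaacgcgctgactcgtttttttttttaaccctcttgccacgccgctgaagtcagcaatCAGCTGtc
bol/Dhpr: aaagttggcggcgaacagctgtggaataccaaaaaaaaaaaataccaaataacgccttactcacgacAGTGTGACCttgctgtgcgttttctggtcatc
CG10147/Bulli: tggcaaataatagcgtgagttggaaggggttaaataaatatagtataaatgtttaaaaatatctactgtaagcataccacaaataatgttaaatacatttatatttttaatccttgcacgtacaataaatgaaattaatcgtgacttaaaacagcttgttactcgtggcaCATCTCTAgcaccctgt

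The summit bases of Art3/mRpS10 and Atat/Shc lay in A- and T-rich DNA, and mean GC content was low across the set as well. It was 38.8% in windows reaching 100 bp to each side of the 490 summits and 45.3% at the 2592 single-gene summits. Windows centred 600 bp to each side of the divergent-promoter summits had 48.3%.

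The gene pairs were mostly head to head and close together. At 466 of the 490 peaks the nearest minus-strand TSS lay at the lower coordinate, the arrangement in which transcription runs outwards on both sides. At these peaks the spacing of the TSSs ran from 1 to 713 bp with a median of 265 bp, and the middle 50 percent of pairs lay between 143 and 355 bp. The other 24 peaks, 4.90% (3.16 to 7.20), met the rule with the TSSs in the opposite order, so that the 5′ ends of both genes overlap and the pair is not divergent in the strict sense. The peaks fell on 467 distinct nearest pairs and reached 956 coding genes. Of the peaks, 464 had exactly 2 coding genes within 500 bp, 24 had 3 and 2 had 4, and 15 also had a noncoding gene's TSS within reach.

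The annotation holds 2616 head-to-head coding pairs with TSSs at most 1000 bp apart, and 460 of them, 17.6%, had a member peak. Here the order and spacing of a pair are those of its closest TSSs. A member peak in reach of both genes counts for the pair, even where it lies at other TSSs of these genes. Their median spacing was 251 bp, against 319 bp for the 2156 pairs without one. The share with a peak was 23.2% (19.2 to 27.6) for pairs under 100 bp apart, 19.7% at 100 to 199 bp, 26.0% (22.3 to 29.9) at 200 to 299 bp and 22.1% at 300 to 399 bp. It was 13.9% at 400 to 499 bp and 4.96% (3.44 to 6.90) from 500 to 1000 bp. The rule itself contributes to this fall, because the stretch within 500 bp of both TSSs shrinks as they move apart. Pairs whose closest TSSs are in the overlapping order had a peak in 31 of 104 cases, 29.8% (21.2 to 39.6). Those peaks need not lie at the overlapping 5′ ends, where the set holds 24 peaks.

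The closest head-to-head pair with a peak was Atg6/Pisd, with TSSs 1 bp apart. Atg6 is the fly Beclin of autophagy and Pisd makes phosphatidylethanolamine. Its peak, 3R:24050752-24050929, had a value of 450, with 166 in replicate 5 and 281 in replicate 7, and its summit lay 50 bp inside the gene Pisd, in a 5′ UTR. CG3032/CG4593 followed at 6 bp with a value of 652. Nmdmc/Mst85C, whose 5′ ends overlap by 6 bp, had a value of 256. At the far end, spirit/CG12065 had TSSs 713 bp apart and a value of 249, and dpr14/spidey had TSSs 645 bp apart and a value of 1120. Fer1HCH/Fer2LCH, the genes for the heavy and light chains of secreted ferritin, had TSSs 652 bp apart at their main peak. That peak, 3R:30388173-30388710, had a value of 1006, with 422 in replicate 5 and 577 in replicate 7. A second peak, at other TSSs of the same genes where the 5′ ends overlap, reached 186. The widest pairs thus included both strong and weak peaks.

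Summits lay between the TSSs at most divergent promoters, in a larger share than that of the bases found there. Of the 490 summits, 353 were between the TSSs, 72.0% (67.8 to 76.0). Among head-to-head pairs the share was 347 of 466, 74.5% (70.2 to 78.4), while on average 41.3% of the bases within 500 bp of both TSSs lie between them. The share of bases weighs all positions alike. A base between head-to-head TSSs is upstream of both, and 63.2% of single-gene summits lay upstream of their TSS or at it. How much that placement adds to the summits' share was not tested. At spacings of 200 to 299 bp, 84.3% of summits (77.0 to 90.0) lay between the TSSs against 34.6% of bases. At 100 to 199 bp the values were 67.6% and 17.1%, and at 300 to 399 bp they were 77.1% and 52.1%. Even where the TSSs were under 100 bp apart, 37.5% of summits (26.9 to 49.0) lay in a stretch that holds 6.72% of the bases in reach. From 400 to 499 bp the summits' share was 91.3% (79.2 to 97.6) and that of the bases 80.5%, so the interval included the bases' share, and from 500 bp upwards all 42 summits lie between the TSSs by construction.

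**Figure D1:**
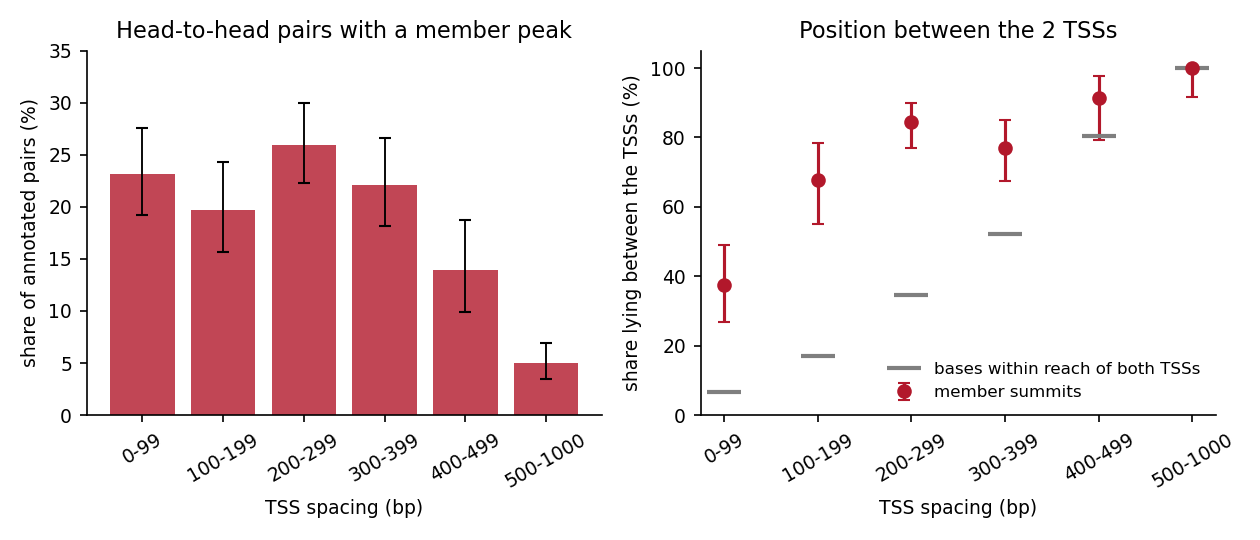
Left, the share of annotated head-to-head coding pairs with a divergent-promoter peak by spacing of the pair's closest TSSs in bp. Right, the share of member summits between the TSSs (points) beside the share of bases within 500 bp of both TSSs that lie there (grey marks). Bars and whiskers show percent with exact 95% intervals. The points sit above the grey marks from 0 to 499 bp, with whiskers clear of the marks in the 4 classes from 0 to 399 bp.

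How near the summits lay to the middle of the pair depended on spacing. The median distance from the midpoint of both TSSs was 65.5 bp over all 490 peaks and 63.3 bp over head-to-head pairs, of which 42.3% (37.7 to 46.9) had the summit within 50 bp of the midpoint. At pairs under 100 bp apart every summit between the TSSs meets that limit by construction. At spacings of 200 to 299 bp the medians were 41.25 bp from the midpoint and 91.5 bp from the nearer TSS. At 300 to 399 bp they were 78 and 93.5 bp. In the other classes the nearer TSS was the closer by median, as at 400 to 499 bp, with 151.25 bp from the midpoint and 78 bp from the TSS. The summit was nearer to the plus-strand TSS in 249 of 466, 53.4% (48.8 to 58.0), so no side was preferred beyond counting error. The nearer TSS lay a median of 76.5 bp away and the farther one 188.5 bp. At single-gene promoters the median distance to the nearest TSS was 115 bp, with 63.2% of summits (61.3 to 65.1) upstream of the TSS or at it. At the 119 head-to-head peaks with an outside summit, that summit lay a median of 45 bp beyond the nearer TSS, on the minus-strand gene's side in 66 and on the plus-strand gene's side in the rest. In the plot of summit position these form short tails just outside the TSSs, with most of them at closely spaced pairs.

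**Figure D2:**
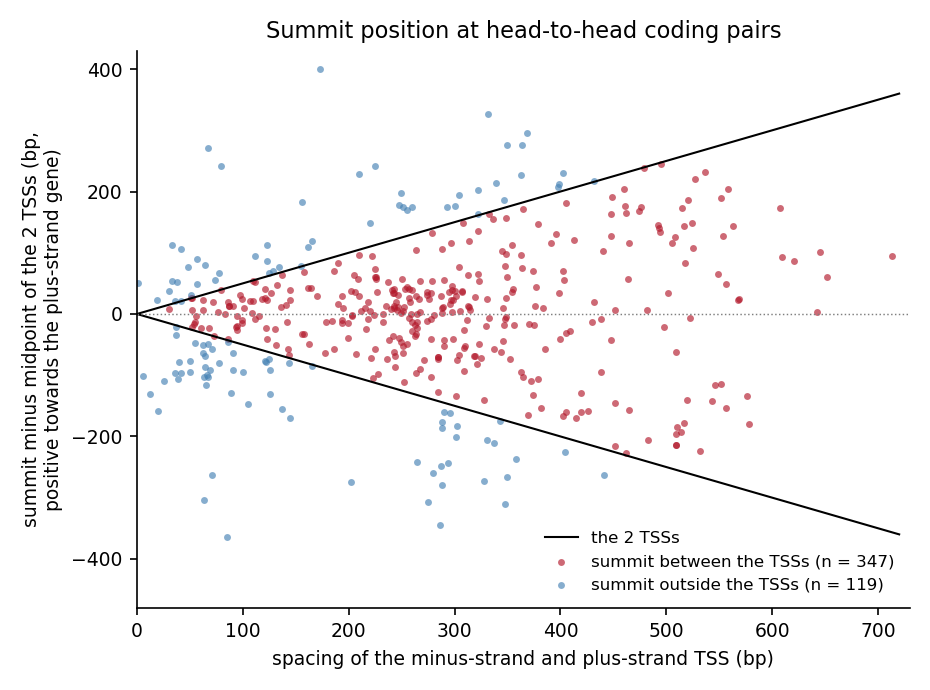
Position of the summit against the midpoint of both TSSs (bp, positive towards the plus-strand gene) by TSS spacing (bp), 1 point per peak at the 466 head-to-head pairs. Black lines are the TSSs, and 347 summits lie between them and 119 outside.

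The position was measured again in each replicate's own peaks. Of the head-to-head members with a replicate 5 peak, 325 of 449, 72.4% (68 to 76.5), had that replicate's summit between the TSSs, and in replicate 7 it was 331 of 444, 74.5% (70.2 to 78.5). Both replicates gave the same call at 383 of the 427 peaks found in both, 89.7%, with 292 between and 91 outside. The replicates' summits lay a median of 26 bp apart at divergent promoters and 25 bp at single-gene promoters, less than the typical distance to either TSS.

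At the summit base the annotation differed from that of single-gene promoters. It was intergenic at 261 of 490 divergent-promoter summits, 53.3% (48.7 to 57.8), against 31.1% (29.4 to 33.0) of single-gene summits. A 5′ UTR held 31.4% of both kinds, and an intron 13.7% (10.8 to 17.0) and 30.9% (29.1 to 32.7). Coding sequence held 3 divergent-promoter summits.

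Divergent-promoter peaks stood higher in the list than single-gene promoter peaks. The median value was 371 (middle 50 percent of peaks 257 to 603, range 170.6 to 6864) against 308 (225 to 485) at single-gene promoters, 277 at peaks away from coding promoters and 289 over all IDR peaks. The ratio of the first medians was 1.20. Among the 8574 strongest peaks of each replicate it was 1.07 in replicate 5, from medians of 149.5 and 140.3, and 1.27 in replicate 7, from 227 and 179. The direction was the same in both replicates, and the size differed between them. Of the divergent-promoter peaks, 38.8% (34.4 to 43.2) were among the 2143 strongest IDR peaks, against 28.6% (26.9 to 30.4) of single-gene peaks, and 14.5% against 21.7% were among the 2143 weakest.

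The share of divergent promoters among coding-promoter peaks therefore fell down the list. It was 21.7% (18.2 to 25.7) in the 1072 strongest IDR peaks and 8.28% (5.48 to 11.9) in the weakest step of the same kind. Among the 100 strongest IDR peaks, 15 of 58 peaks at coding promoters were divergent, 25.9% (15.3 to 39.0). The members' median rank was 3548 in replicate 5 and 2705 in replicate 7, and that of single-gene peaks 4047 and 3988. Of the members found in both replicates, 310 of 451, 68.7% (64.2 to 73.0), ranked higher in replicate 7 than in replicate 5, against 52.1% (50.1 to 54.1) of single-gene peaks. Divergent promoters thus differed between the libraries in rank. The replicate values had a Spearman rho of 0.678 across 451 members and 0.657 across 2510 single-gene peaks, across peaks that share both libraries.

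**Figure D3:**
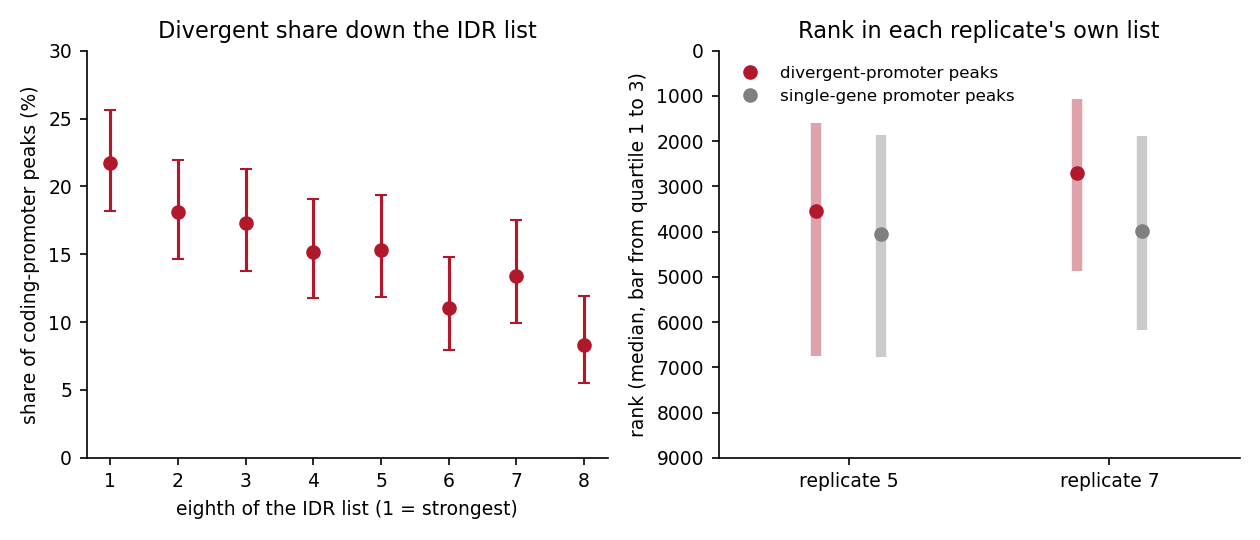
Left, percent of coding-promoter IDR peaks that were divergent in 8 steps of the list from strongest to weakest, with exact 95% intervals. Right, rank of divergent-promoter and single-gene peaks in each replicate's own list, with the median as a point and a bar from quartile 1 to 3. The share falls from 21.7% to 8.28%, and the gap between medians is wider in replicate 7.

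Value went with the distance from the nearer TSS and with some of the words under the summit. Across spacing classes it did not rise or fall steadily. The 122 strongest members, from 608 upwards, lay mostly 61.5 to 131.8 bp from the nearer TSS (middle 50 percent of them), and the 122 weakest, up to 257, lay 27 to 100.3 bp from it. The median of the weakest was 49.5 bp and that of the strongest 51.5 bp more. The share of head-to-head summits between the TSSs was 75.2% and 74.3% in these groups. Median values by spacing class ran from 320 at 400 to 499 bp to 436 at 200 to 299 bp. Head-to-head peaks with the summit between the TSSs had a median of 387 and those with it outside 352, and the 24 peaks with overlapping 5′ ends had 312. The replicates differed on the first comparison. Median ranks for summits between and outside were 2481 and 2938.5 in replicate 7, but 3548 and 3456 in replicate 5. Peak width had a median of 336 bp at divergent promoters and 390 bp at single-gene promoters, where 49.3% of peaks were exactly 390 bp wide, against 36.9% of the members.

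The strongest divergent promoter belonged to mRpS23, a protein of the small mitochondrial ribosomal subunit, and CenG1A, an Arf GTPase-activating protein. Its peak at 2L:13835259-13835683 had a value of 6864, rank 6 of all IDR peaks, with 3821 (rank 3) in replicate 5 and 3079 (rank 11) in replicate 7. The summit was intergenic, in the stretch between the TSSs, 391 bp from that of mRpS23. Other mitochondrial genes were near the top. Art3/mRpS10, a protein arginine methyltransferase gene and another small-subunit gene, had 4375 at 3R:15229348-15229728, with 1353 in replicate 5 and 3037 in replicate 7. Its TSSs were 257 bp apart with the summit 6.5 bp from their midpoint. mRpL23/CG9004 (3L:2373421-2373792) had 2669, with 898 and 1782 in the replicates. Coq4/CG32176, with a coenzyme Q synthesis gene, had 2084 and lay 247 bp apart. At Pex11ab/CG8320, with a gene for peroxisome division, the value was 4089, with 1745 and 2336 in the replicates, and the TSSs were 33 bp apart.

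Genes of nuclear proteins were also among the first 20. Chro/Ssl1, at 3L:22878706-22879106, had a value of 4661, with 1862 in replicate 5 and 2811 in replicate 7. Chro encodes the chromodomain protein Chromator and Ssl1 a component of TFIIH, and the summit lay in a 5′ UTR, 94 bp outside the nearer TSS. Mppe/pds5, with the gene of a cohesin partner, had 2674, with 1393 in replicate 5 at rank 48 and 1288 in replicate 7 at rank 97. Further down, Cp190/CG4338, with the gene of an insulator protein, had 1487, and brm/Arl1, with the ATPase of the Brahma remodelling complex, had 1084.

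Other members of the first 20 had genes of varied functions. Atat/Shc, with the genes of a tubulin acetyltransferase and of an adaptor of receptor tyrosine kinases, had 3615 at 3L:9426701-9427076. Its values of 1696 and 1924 gave ranks of 35 and 38. Fbw5/CG9147, with an F-box protein gene, had 5129 at 2L:6065884-6066292, with 2055 and 3076 in the replicates, and its summit lay 9 bp beyond a TSS in a 5′ UTR. Tcs5/CHMP2B, with an ESCRT-III gene, had 3356, and the summit lay 2 bp from the midpoint of TSSs 224 bp apart. Also among the first 20 were tank/CG12194, Pdrg1/Pal1, CG11309/CG7632, Mnat9/CG1792, CG5757/CG5098, CG3437/CG3552, CG13390/CG17294, ND-ASHI/Fum1 and Reps/l(2)gd1, from 3590 down to 1989. The lowest values of the set were 170.6 at usp/CG4313, 173.2 at CG4324/Rsph4a and 175.0 at Prp18/CG6013. The first is a second peak of its pair, whose main peak reached 691.

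Some strong members were present in 1 replicate list only, although each such list holds 30000 peaks. The IDR peaks are the 8574 strongest of the pooled list, so a peak of 1 library can enter. Of the 490 members, 451 overlapped a peak in both replicate lists, 92.0% (89.3 to 94.3), against 96.8% (96.1 to 97.5) of single-gene peaks. The replicate 5 list lacked 17 of them and the replicate 7 list 22. ND-ASHI/Fum1, with genes of a complex I subunit and of fumarase (X:6679167-6679538), had a value of 2014 and was at rank 75 of replicate 5 with 1114, while the nearest replicate 7 summit was 16062 bp away. In the other direction CG7183/CG7988 had 963 in replicate 7 at rank 184 and no replicate 5 summit within 3310 bp. Gk1/CG13876, with a glycerol kinase gene, had 916 at rank 196 of replicate 7 and no replicate 5 summit within 2207 bp. These 3 peaks were singled out after their values were seen, and why a list lacks them was not tested.

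Divergent-promoter windows held words of housekeeping promoters more often than single-gene windows, and GAGA and CACA repeats less often. Words were searched on both strands up to 100 bp to each side of the summit, and the share of such windows centred on the 19252 coding TSS positions is given as background. The DRE, TATCGATA, was in 55 of 490 windows, 11.2% (8.57 to 14.4), against 3.16% (2.52 to 3.91) of single-gene windows and a background of 6.45%. The replicates' own lists gave 10.8% against 3.56% in replicate 5 and 11.8% against 3.57% in replicate 7. The difference of 8.06 percentage points was 2.29 points among the 2143 strongest IDR peaks and 3.07 points in windows reaching 50 bp to each side. Motif 7, CATCNCTA, was in 10.0% (7.49 to 13) against 3.43%, with a background of 4.46%. Motif 1, GGTCACACT, was in 5.71% (3.83 to 8.15) against 2.08%, with a background of 4.42% that lies inside the members' interval. Motif 6, GGTATTT, was in 10.6% against 5.75%, with a background of 6.59%, and the E-box CAGCTG in 18.8% (15.4 to 22.5) against 12.9%, with a background of 13.4%. With the shorter windows the differences fell to 1.55 points for Motif 1, from 3.63, and to 1.20 points for the E-box, from 5.85, and among the strongest peaks that of Motif 1 was 1.30 points. At least 1 of these 5 words was in 44.7% of member windows (40.2 to 49.2), 24.3% of single-gene windows (22.7 to 26.0) and 29.2% of windows at all coding TSSs.

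GAGA, CACA and initiator words were less frequent at divergent than at single-gene promoters, and TATAAA and CGATA more frequent. GAGAGA, read by the GAGA factor Trl, was in 6.53% (4.51 to 9.09) of member windows against 17.3% (15.9 to 18.8) of single-gene windows, with a background of 9.74%. The repeat CACACACA was in 3.47% against 8.72%, with a background of 4%, and the initiator word TCAGTT in 13.3% (10.4 to 16.6) against 18.8%, with a background of 21.9%. TATAAA was in 27.3% (23.4 to 31.5) against 18.6%, with a background of 26.9%. The DRE core CGATA, which lies inside the DRE, was in 45.5% (41.0 to 50.04) against 30.9%, with a background of 37.1%. For CACACACA (2.03 to 5.50) and TATAAA the members' intervals included the background. Those of single-gene windows, 7.66 to 9.87 and 17.1 to 20.1, did not. The 8-base words with the largest excess over the flanking windows were TATCGATA, at 11.2% against 0.612%, then AAATAAAT, AAATAATT, ATCGATAG, which overlaps the DRE, and AAAAATAA. Windows differed in GC content as given above, and its part in these shares was not tested. The GATA word AGATAA was in 12.7% (9.84 to 15.9) against 9.45%, with a background of 10.6%, and the intervals overlapped. They overlapped as well for the CTCF core AGGNGGC, in 5.31% against 7.56% with a background of 6.25%, and for the AP-1 word TGANTCA, in 3.88% against 4.48% with a background of 3.79%. The Zelda word CAGGTAG, the CRE TGACGTCA and the NRF word GCGCANGCG were in 2, 3 and 1 of the 490 windows, with backgrounds of 1.08%, 0.275% and 1.19%. A match is a run of letters and not a shown binding site.

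**Figure D4:**
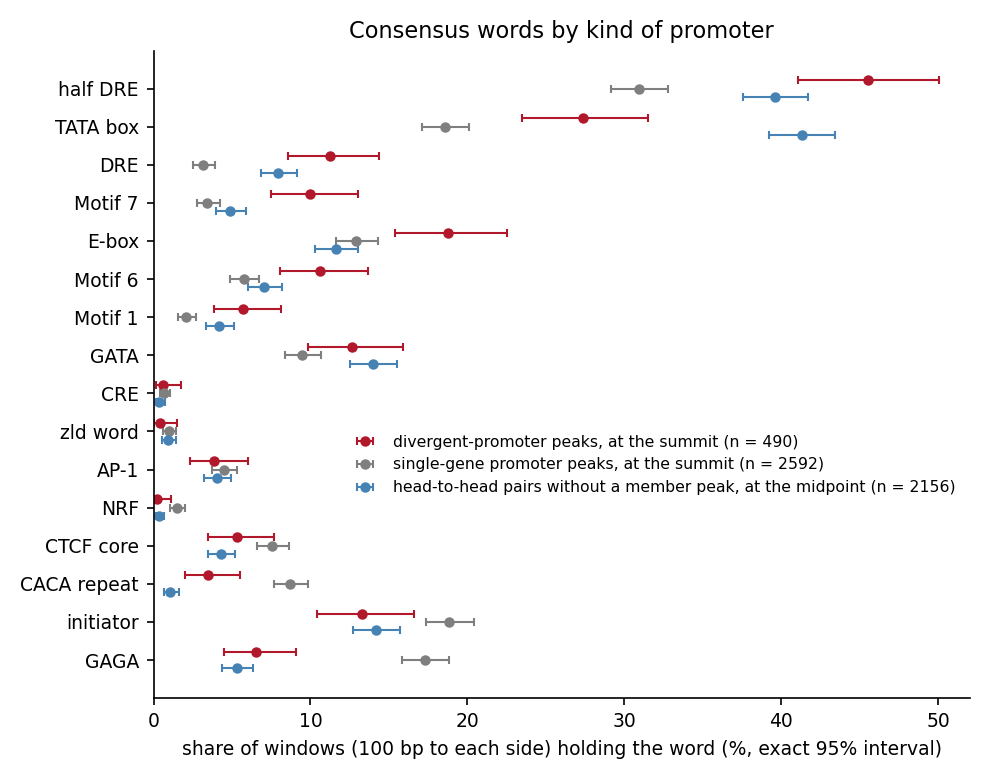
Share of windows reaching 100 bp to each side (percent, exact 95% interval) holding each of 16 consensus words at divergent-promoter summits, at single-gene summits and at the midpoints of head-to-head pairs without a member peak, ordered by the difference between the first groups. DRE is at 11.2%, 3.16% and 7.93% in these groups.

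Part of the difference is shared by head-to-head pairs that had no member peak. At the midpoints of those 2156 pairs the DRE was in 7.93% of windows (6.83 to 9.15) and Motif 1 in 4.17%, between both kinds of peak, while GAGAGA was in 5.29%, close to the members. Motif 7, at 4.87% (4 to 5.87), and the E-box, at 11.6% (10.3 to 13), were less frequent there than under divergent-promoter summits. At the midpoints of the 460 pairs with a member peak, which are placed in the same way, Motif 7 was in 7.61% (5.36 to 10.4) and the DRE in 11.5% (8.75 to 14.8), with intervals that overlap those of pairs without one, and the E-box was in 17.8% (14.4 to 21.6), with an interval that does not. At pairs without a member peak TATAAA was more frequent than under divergent-promoter summits, at 41.3%, in windows whose mean GC content was 33.6%. At least 1 of the 5 housekeeping words was in 28.7% of these midpoint windows (26.8 to 30.7).

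Within the set, windows holding the DRE had the weaker peaks. The median value was 287 for the 55 members with the word and 389 for the 435 without it, and their median ranks were 5404 and 3316 in replicate 5 and 4418 and 2452 in replicate 7. Single-gene peaks showed no such gap in value, with medians of 322 and 308. Of the 122 strongest members 4.92% (1.83 to 10.4) held the DRE, and of the 122 weakest 16.4% (10.3 to 24.2). Motif 1 ran the same way, at 298 for 28 holders and 383 for the rest, and it did so at single-gene peaks too, at 256 for 54 holders and 309 for the rest. Holders of Motif 7 and Motif 6 had lower medians too, at 317 for 49 holders against 381, and at 338 for 52 holders against 380. In replicate 5, however, Motif 6 holders had the higher rank, with medians of 3445 and 3554. The E-box showed no such gap, at 372 and 371. Atat/Shc, at rank 7 within the set, is an exception among DRE holders.

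The genes of divergent-promoter peaks were shorter than those of single-gene peaks, longer than other genes with an opposite-strand partner, and came more from the mitochondrial translation machinery. Their median length was 2676 bp, against 6408 bp for the 2025 genes of single-gene peaks, 2228 bp for the 4185 genes with a partner and no divergent-promoter peak, and 2166 bp for all 13945 coding genes. A single annotated TSS was given for 57.8% of them, 42.8% of genes at single-gene peaks, 70.9% of partnered genes without a divergent-promoter peak and 73.5% of all coding genes, and 100 genes had peaks of both kinds. Of all coding genes 6.86% had a divergent-promoter peak, and of the 5141 with an opposite-strand coding TSS within 1000 bp 18.6% had one, while 14.5% of all coding genes had a single-gene peak. Lists of gene names are read against these shares.

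Mitochondrial ribosomal protein genes had a divergent-promoter peak in 22 of 75 cases, 29.3% (19.4 to 41.0), and 2 had a single-gene peak. Of the 59 with an opposite-strand partner, 37.3% (25.04 to 50.9) had one, and of the 24 lists it was the only one whose interval lay above 18.6% among partnered genes. The strongest were mRpS23, mRpS10 and mRpL23, given above, and the median value over peaks at these genes was 364, close to that of the whole set. Cytoplasmic ribosomal protein genes had a divergent-promoter peak at 15 of 86, 17.4% (10.1 to 27.1), and a single-gene peak at 33, 38.4% (28.1 to 49.5), both above the shares of all coding genes. Of the 53 with a partner 28.3% (16.8 to 42.3) had a divergent-promoter peak. The list made up 1.57% of the genes at divergent-promoter peaks and 1.63% of those at single-gene peaks. Their divergent-promoter peaks had a median value of 713 and were led by Ripalpha/RpL7 (1734), RpS27/Nup37 (1567) and Nelf-E/RpL14 (1191).

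Respiratory chain and transcription genes followed. Oxidative phosphorylation genes had a divergent-promoter peak in 13 of 84 cases, 15.5% (8.51 to 25.01), led by ND-ASHI/Fum1, TppII/ND-MWFE (926) and Sec3/COX7B (578), and 7 had a single-gene peak. Of the 44 with a partner 29.5% (16.8 to 45.2) had one. General transcription factor and Mediator genes had 10 of 65, 15.4% (7.63 to 26.5), led by Ssl1, MED30/Rev1 (1247) and Brf/sds22 (1121). Of the 48 with a partner 20.8% (10.5 to 34.99) had one, near the 18.6% of all partnered genes. Splicing genes had 5 of 42 and nuclear pore genes 3 of 25, with intervals that include 6.86%, and in both lists no gene had a single-gene peak. Among those with a partner the shares were 13.5% and 13.6%. Chromatin regulators had 9 of 71, chaperones 6 of 39, translation factors 6 of 61, vesicle traffic genes 12 of 123 and proteasome genes 4 of 48, with intervals that all include 6.86%. The intervals of a further 8 lists include it as well: cell cycle genes had 4 of 59, DNA replication genes 3 of 42, insulator and promoter-binding protein genes 3 of 20, aminoacyl-tRNA synthetase genes 2 of 33, RNA polymerase subunit genes 2 of 30, DNA repair genes 2 of 48, mitochondrial import genes 2 of 15 and peroxisome genes 1 of 15. No peak had both of its nearest genes in the same list, leaving aside the list of genes known only by a CG number.

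Tissue genes differed among themselves. Muscle genes had a single-gene peak in 20 of 35 cases, 57.1% (39.4 to 73.7), above the 14.5% of all coding genes, and a divergent-promoter peak in 3, 8.57% (1.80 to 23.1), at mbc, mys and Tm1, while 10 of the 35 have an opposite-strand partner. Of 38 neuronal genes none had a divergent-promoter peak, which allows a share of up to 9.25%, and 5 had a single-gene peak, 13.2% (4.41 to 28.1). Only 7 of the 38 have an opposite-strand partner, and among those 7 the interval reaches 41.0%. Cuticle protein genes had 2 of 120, 1.67% (0.202 to 5.89), at Cpr23B and Cpr73D, and 13 had a single-gene peak, 10.8% (5.90 to 17.8). Chemosensory receptor genes had 3 of 180, 1.67% (0.345 to 4.79), at Ir60e, Ir94c and Gr63a, each beside another coding gene, and 1 had a single-gene peak. The last pair of lists was below 6.86%, but among genes with a partner the shares were 15.4% (1.92 to 45.4) and 11.1% (2.35 to 29.2). Genes known only by a CG number had a divergent-promoter peak in 303 of 6097 cases, 4.97% (4.44 to 5.55). Among those with a partner it was 16.8% (15.1 to 18.58), near the 18.6% of all partnered genes. Such genes were 31.7% of the genes at divergent-promoter peaks, 29.7% of those at single-gene peaks and 43.7% of all coding genes. At 55 of the 490 peaks both nearest genes had only such a number, and at 198 one of them did.

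**Figure D5:**
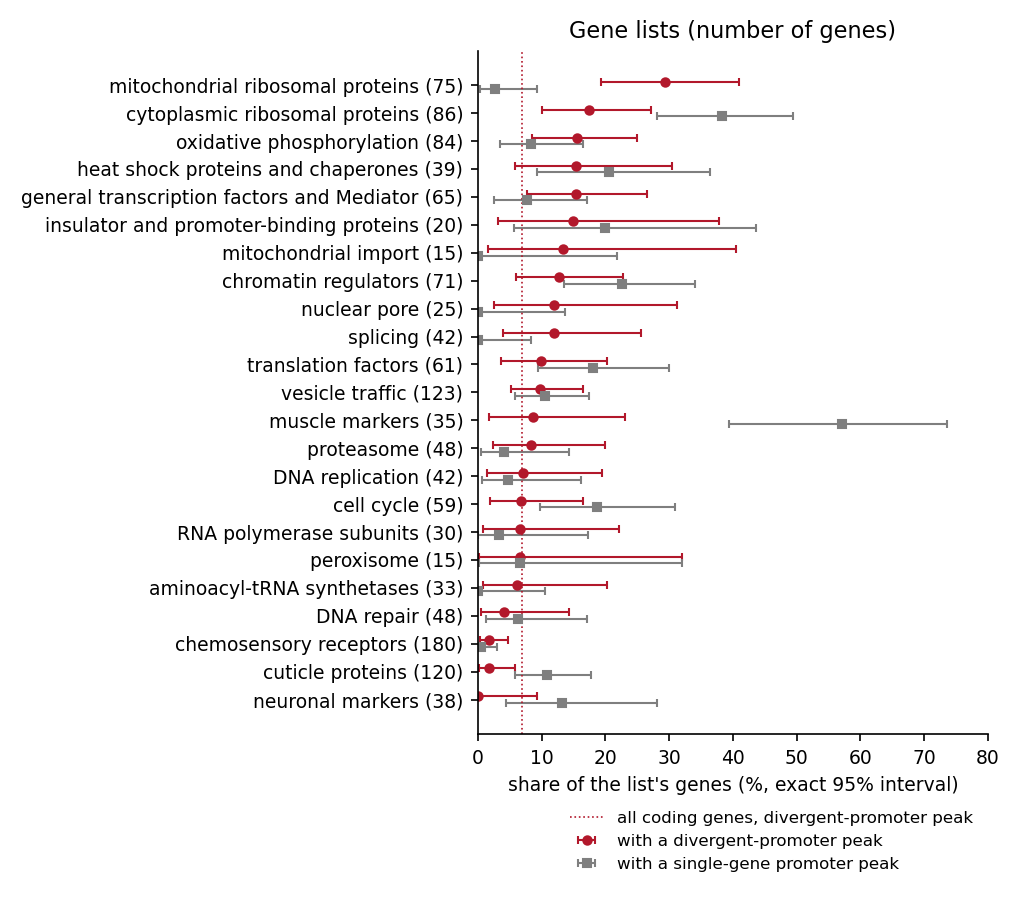
Share of the genes of each list (percent, exact 95% interval, number of genes in brackets) with a divergent-promoter peak and with a single-gene promoter peak. The dotted line is the share of all coding genes with a divergent-promoter peak, 6.86%, and mitochondrial ribosomal protein genes are highest for the first kind and muscle genes for the second.

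Having an opposite-strand neighbour went with having a promoter peak of any kind. Of the coding genes 21.3% had an IDR summit within 500 bp of a TSS. The share was 26.5% (25.3 to 27.7) of the 5141 genes with an opposite-strand coding TSS within 1000 bp and 18.3% (17.5 to 19.1) of the other 8804. It was 28.0% and 18.4% with the strongest peaks of replicate 5 and 27.1% and 18.5% with those of replicate 7. Among genes with 1 annotated TSS it was 19.2% and 11.7%. A summit in a shared promoter counts for both of its genes, which adds to the first share by construction.

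The share of opposite-strand coding pairs with a divergent-promoter peak differed between chromosome arms. It was 22.9% (19.4 to 26.7) on 3L and 13.9% (10.7 to 17.6) on X, with 2L, 2R and 3R between them at 16.6% to 17.9%. Chromosome 4 had 3 of 11 pairs, 27.3% (6.02 to 61.0), with an interval that spans all of these. X held 57 of the 490 peaks, 11.6% (8.93 to 14.8), and 15.7% (14.3 to 17.1) of the single-gene peaks.

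At 22 pairs there was more than 1 member peak, with 3 at imd/Dp1, which pairs the adaptor of the Imd immune pathway with an RNA-binding protein gene. Their values were 1179, 287 and 268. Among the 24 peaks at overlapping 5′ ends, 6 summits lay between the TSSs, and the strongest were CG4741/Adck1 (1697), CG31808/Cyt-c-d (1105) and emp/CG3829 (1098). mfr/Tsp66E, at 924 in the IDR list, had 496 at rank 408 of replicate 5 and 57.4 at rank 15654 of replicate 7. The limit of 500 bp was met most narrowly by Mpc1/CG42613, whose farther TSS lay 500 bp away (value 189), Max/CG42374 at 497 bp (360) and imd/Dp1 at 493 bp (287). Just outside were CG6550/Mtap at 501 bp (491), Enoph/Hph at 501 bp (187) and Elp6/Dic1 at 502 bp. The last, with a subunit gene of the Elongator complex, had a value of 4182, above all but 5 members. The same pair has another peak inside the set, 3R:13364621-13365264, with a value of 1202.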

How the data were processed

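CG12769-GFP ChIP-seq of whole embryos was analysed from 4 peak lists on the dm6 assembly, 1 for each of the 2 biological replicates, 1 for the pooled replicates and 1 for the IDR-thresholded set. Per the labels, chromatin was sonicated to fragments of 200 to 800 bp. The deposited signal value of each peak was written by the authors' peak caller and served here to describe and rank the peaks of 1 list. A −log10 q-value, also from the authors' caller, was deposited for each peak, but as 385 of the 490 members share its highest value it was not used. For the aligner, the caller, its filters and the IDR cutoff, the names and settings were not given in the sources used here. An exact match of positions showed that the IDR list equals the 8574 strongest peaks of the pooled list, so its values are pooled values, and each replicate's value was read from the overlapping peak (at least 1 bp) with the nearest summit. Read counts were not analysed here, so depth is unknown and no value carries a depth-based error.

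Coordinates are 1-based. TSSs are the 5′ ends of all transcripts of 13945 protein-coding genes on 6 arms in Ensembl release 115 (BDGP6.54, the sequence of dm6). A pair is the nearest TSS on each strand, and head to head means that the minus-strand TSS lies at the lower coordinate. Replicate checks used the 8574 strongest peaks of each replicate list. Shares carry exact (Clopper-Pearson) 95% intervals from scipy 1.17.1 under Python 3.11.15, which cover counting error only. No test was made over peaks or genes. Assignment to promoters and word search were tested on simulated data.

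The members, the 24 gene lists (matched by gene symbol), the 16 consensus words and the named peaks were chosen with earlier results of these data known. Named peaks are the 20 strongest members, the 3 closest and 3 most distant pairs, up to 3 peaks per list, the 3 lowest values, and the 3 on each side of the 500 bp limit; others are marked as chosen after their values were seen. Name patterns that caught wrong genes were corrected before any list result was used. Alternatives were the 2143 strongest IDR peaks, the pooled list, each replicate alone, 1 TSS per gene, TSS distances of 250 and 1000 bp, 1 peak per pair, head-to-head pairs only, genes with 1 TSS, and windows of 101 and 301 bp. A strong member is not reported here.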

Additional observations from a re-analysis of the deposited data

How the results depend on the processing

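No paired analysis was possible because there is 1 group and no contrast between groups. Leaving out a replicate put the divergent share of coding-promoter peaks at 15.97% to 16.4%, the value ratio at 1.07 to 1.27, the median spacing at 263 to 263.5 bp, the median distance from the midpoint at 60.5 to 83 bp, the share of summits between the TSSs at 70.3% to 72.8%, and the excess of genes with a partner at 8.54 to 9.65 percentage points. With the 2143 strongest IDR peaks the divergent share was 19.98%, the median spacing 258 bp and the gene excess 3.71 points. With the whole pooled list these were 11.8%, 276.5 bp and 5.40 points, the value ratio was 1.53, the share between the TSSs 67.0% and the distance from the midpoint 87.5 bp. With 1 TSS per gene the divergent share was 17.0%, the spacing 265 bp, the share between the TSSs 68.8% and the gene excess 5.08 points. A TSS distance of 250 bp gave 12.3%, 210 bp, 76.9%, 38.5 bp from the midpoint and 7.24 points. A distance of 1000 bp gave a divergent share of 21.6%, a spacing of 364 bp, 61.1% between the TSSs and 175 bp from the midpoint. The distance in the rule thus sets much of these values. Head-to-head pairs alone had a spacing of 265 bp and 74.5% between the TSSs. Of 57 recomputed main values, 30 moved by more than the spread between replicates. Divergent-promoter peaks kept the higher median value and the gene excess stayed positive in every alternative. The other main results are shares, spacings, distances or counts, which cannot change sign.

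Of 16 words, 4 were at least 1.5 times as frequent at divergent as at single-gene promoters, and 5 or 6 in the alternatives, but the differences in share moved: 50 of 96 recomputed ones moved by more than the spread between replicates. For the DRE core CGATA the difference of 14.6 points was 7.95 with the strongest IDR peaks and 8.49 with the shorter windows. With the longer windows it was 12.3 points for the full DRE, 7.39 for Motif 1 and 10.99 for the E-box. The CRE word, in 3 member windows, changed sign: 0.65 points with the strongest IDR peaks and 0.37 without replicate 5, against -0.23 without replicate 7. Among gene lists, the share of genes at divergent minus single-gene peaks changed sign for cytoplasmic ribosomal proteins (1.74 points with the strongest peaks, 0.147 with the pooled list), translation factors (-0.22 with the strongest peaks), cuticle proteins (0.112 with the strongest peaks), the cell cycle (0.00464 with the pooled list) and CG-numbered genes (-2.62 with the pooled list), and the cause was not tested. Without read counts, what depth limits cannot be given.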
